A study of Mus musculus with 3 samples.

Results

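The IgG3 plasma cells described here are non-dividing antibody-secreting cells from the spleen whose heavy chain transcripts come almost wholly from Ighg3, the gene for the constant region of IgG3. They were chosen by their transcript counts in all 3 single-cell libraries. A cell needed at least 500 detected genes, under 10% mitochondrial transcripts, 1 clear hashtag, at least 5 Edem1 and at least 20 Mzb1 UMIs (unique molecular identifiers, 1 per captured transcript), fewer than 3 Mki67 and Top2a UMIs together, and Ighg3 at 80% or more of the UMIs of the 6 heavy chain constant genes Ighm, Ighg1, Ighg2b, Ighg2c, Ighg3 and Igha. This rule found 86 cells of 35102 filtered cells and of 1873 non-dividing plasma cells. Of the other plasma cells, 699 expressed mainly Ighm and 788 mainly Ighg2b or Ighg2c, and these are the cells with which they are compared.

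The mice were wild-type females of the BXD2 strain, a recombinant inbred line that develops lupus-like autoimmunity. Each of 3 mice per treatment received intraperitoneally either a complex of 5 µg IL-4 with 25 µg anti-IL-4 antibody, which prolongs the action of the cytokine, or 25 µg of the antibody alone. All mice received the TLR7 agonist R848 at 40 µg per 20 g body weight 2 h later, the round was given again after 2 days, and spleens were taken 2 days after that. B cells were enriched by negative selection, marked with 1 hashtag per treatment, stained with 12 surface antibodies carrying sequence tags and run as 3 pooled 5' libraries (sets 1 to 3), each holding both treatments. The groups are called R848 and IL-4+R848, and both carried the anti-IL-4 antibody. The labels do not give the age of the mice or how they were divided over the sets, so that p-values measure the spread between sets, which may be technical. Where 4 pairs of sums are compared, 2 of them come from set 1 and share its library, so that they are not 4 independent libraries.

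Plasma cells are the end stage of B cell differentiation. They enlarge the endoplasmic reticulum, fold and glycosylate antibody and secrete it. IgG3 is one of the mouse IgG subclasses. It is made after class switch recombination joins the rearranged variable gene to Ighg3, and it is known in particular from early responses and from responses to repetitive antigens that need little T cell help, often by marginal zone and B-1 cells. Germinal centers are another source of switched plasma cells.

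Set 1 gave 43 of the cells, set 2 gave 15 and set 3 gave 28. With R848 alone the sets held 32, 12 and 20 cells, and with IL-4+R848 they held 11, 3 and 8. The cells had a median of 20630 UMIs with R848 and 19503 with IL-4+R848, against 14446 and 15781 in IgM plasma cells and 19527 and 20381.5 in IgG2b or IgG2c plasma cells. Immunoglobulin genes took 61.3, 49.98 and 50.02% of the summed UMIs in sets 1 to 3 with R848, 55.3, 31.7 and 51.6% with IL-4+R848, 37.5 to 40.4% in the 6 IgM sums and 48.3 to 51.5% in the 6 IgG2b or IgG2c sums. The sum of set 2 with IL-4+R848 rests on 3 cells and stood apart in this share. Barcodes shared between sets numbered 230, 289 and 219, no 2 of the 86 cells shared one, and 3 of the 86 had a barcode that also occurred in another set.

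The genes of the rule describe the cells, and no result is drawn from them. Edem1, which helps to clear misfolded glycoproteins from the endoplasmic reticulum, had a median of 24 UMIs per cell (range 5 to 102). Mzb1, a chaperone of immunoglobulin assembly, had a median of 115.5 (range 20 to 399). Ighg3 had a median of 494 UMIs (range 139 to 1716) and made up a median of 98.2% of the heavy chain constant UMIs. The 3 cells just inside the limit had 82.6, 83.0 and 85.4% Ighg3, and the 3 just outside had 78.0, 64.3 and 53.8%. Among non-dividing cells with Ighg3 dominant and at least 50 heavy chain constant UMIs, 86 of 100 lay inside the Edem1 and Mzb1 limits. Ighg3 lies on chromosome 12, 113356224 to 113361232 of GRCm38, on the minus strand, among the other heavy chain constant genes.

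All 12 plasma cell markers of the list had UMIs in every set and treatment, apart from 1 of them in the sum of 3 cells. Edem1, Mzb1 and Ighg3 are among the 12, and the rule fixed their presence. Jchain, which encodes the chain that joins IgM and IgA polymers and is transcribed in most plasma cells, reached 32049, 16045 and 22686 CPM (UMIs scaled to a common library size by TMM factors) with R848 and 26909, 14287 and 21674 CPM with IL-4+R848. Summed markers of T, NK, myeloid, dendritic, erythroid and platelet cells came to at most 26.0 CPM for any list in any sum, and in every sum at least 6 markers of each list, or 5 of 6 for platelets, were at 0. Cd3d, Cd3e, Lyz2, Csf1r, S100a8 and S100a9 were at 0 in all 6 sums. Outside the plasma cell gate, 9.57, 9.67 and 6.63% of the cells of sets 1 to 3 carried an Ighg3 UMI at median depths of 4522.5 to 6233 UMIs, and 1 of 50, 0 of 17 and 0 of 66 NK-marked cells did at median depths of 6781 to 8354.

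The first comparison asks whether IL-4 changed how many IgG3 plasma cells were found. They made up 0.448, 0.213 and 0.266% of the filtered cells of sets 1 to 3 with R848 and 0.215, 0.0655 and 0.157% with IL-4+R848. The share was lower with IL-4+R848 in 3 of 3 sets, with means of 0.309 ± 0.123% and 0.146 ± 0.0752% (SD, n = 3), but the lowest R848 set lay just under the highest IL-4+R848 set. The difference did not pass a two-sided exact permutation test (p = 0.2, where 3 against 3 sets cannot go below 0.1). This and the other permutation tests between treatments do not use the pairing of the treatments within a set. With 12 and 3 cells behind the values of set 2, the 95% exact binomial intervals of its shares ran from 0.110 to 0.371% and from 0.0135 to 0.191%, for counting error only.

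Among non-dividing plasma cells the IgG3 share was 7.44, 3.92 and 3.32% with R848 and 4, 2.91 and 5.13% with IL-4+R848. It was lower in sets 1 and 2 and higher in set 3, with means of 4.89 ± 2.23% and 4.01 ± 1.11% (SD, n = 3; exact permutation test, two-sided, p = 0.7), and without set 1 the IL-4+R848 mean was the higher one by 0.401 percentage points. The dividing share of Ighg3-dominant plasmablasts was 23.8, 25.0 and 23.1% with R848 (10 of 42, 4 of 16 and 6 of 26 cells). With IL-4+R848 it was 38.9, 25.0 and 20.0% (7 of 18, 1 of 4 and 2 of 10 cells), higher in set 1 alone (exact permutation test, p = 0.8), and without set 1 the difference turned to -1.54 percentage points. No shift of IgG3 cells within the plasma cell pool or in their dividing fraction was detectable at these cell numbers.

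**Figure D1:**
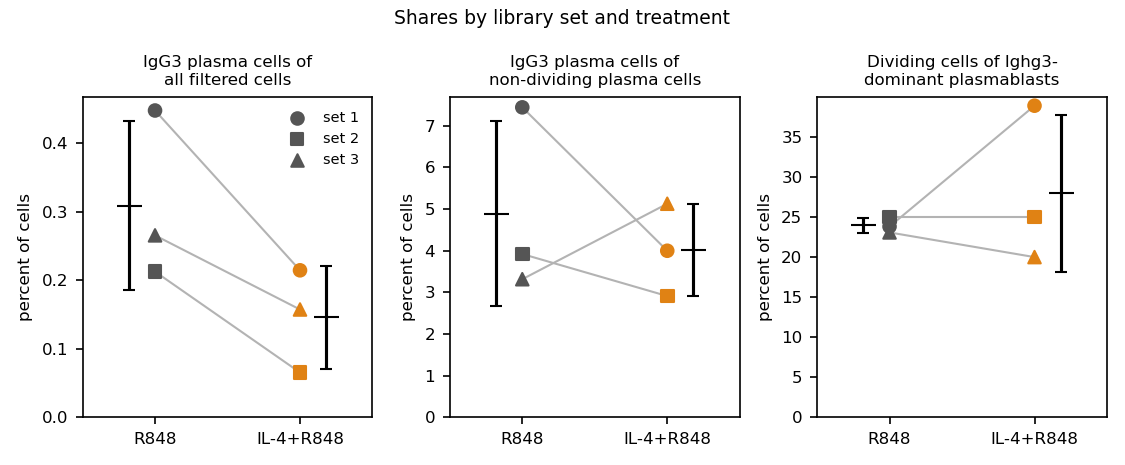
Shares of cells (percent, y axes from 0) in each library set with R848 (grey) and IL-4+R848 (orange), joined within a set, with the mean and SD over 3 sets in black. The first panel falls from a mean of 0.309% to 0.146%, and in the other panels the sets move in different directions.

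The hashtags bear on these shares. Before hashtag assignment, 112 cells met the other limits, and 24 of them (21.4%) carried both hashtags and were left out. Both hashtags were found on 10.7% of IgM, 18.8% of IgG2b or IgG2c plasma cells and 9.16% of all cells. The larger hashtag had a median of 339 UMIs on the R848 IgG3 cells and 1036.5 on the IL-4+R848 ones, against 1437 and 2442 on IgM plasma cells and 349 and 880.5 on IgG2b or IgG2c plasma cells. With a stricter hashtag rule the mean shares of all filtered cells became 0.181 and 0.124%, a difference of -0.0565 in place of -0.163 percentage points. The part of cell loss at this step in the share was not tested.

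The variable genes show how the IgG3 cells differ among themselves. In a 5' library most immunoglobulin UMIs fall on the variable exon, so that each cell could be assigned the heavy and light chain V gene with at least 10 UMIs and at least 50% of its V UMIs. All 86 cells had such a heavy chain gene, at a median of 99.7% of heavy V UMIs, and 82 had such a light chain gene. They used 37 heavy chain and 37 light chain V genes, and 17 and 15 of these occurred in 1 cell each. Ighv1-26 was found in 13 cells, Ighv1-81 and Ighv3-6 in 7 each, Ighv14-4 in 4 and Ighv1-66 and Ighv1-72 in 3 each.

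The leading V gene was not spread evenly over the sets. Ighv1-26 was used by 9 of 12 cells of set 2 with R848, by 2 of 20 and 2 of 8 cells of set 3 with R848 and IL-4+R848, and by 0 of the 43 cells of set 1. In IgM plasma cells it was used by 47 of 692 (6.79%, 95% exact interval 5.03 to 8.93%) and in IgG2b or IgG2c plasma cells by 45 of 785 (5.73%, interval 4.21 to 7.60%). In the IgG3 cells of set 1 with R848, Ighv1-81 and Ighv3-6 took 5 of 32 cells each. The germline segments of these genes are shown because they were the most used, with 27 of the 69 cells whose heavy chain gene was found in more than 1 cell. Each line gives the last 300 bases of the annotated transcript in GENCODE vM21 (exon 2 and its end at the junction with D), with the codons for the conserved tyrosine, aromatic residue and cysteine before the junction in capitals.
Ighv1-26: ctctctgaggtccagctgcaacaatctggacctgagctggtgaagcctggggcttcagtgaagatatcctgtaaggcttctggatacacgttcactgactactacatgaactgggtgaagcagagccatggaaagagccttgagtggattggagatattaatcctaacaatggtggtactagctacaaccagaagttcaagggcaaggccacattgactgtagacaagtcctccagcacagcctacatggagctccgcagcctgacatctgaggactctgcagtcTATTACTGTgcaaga
Ighv1-81: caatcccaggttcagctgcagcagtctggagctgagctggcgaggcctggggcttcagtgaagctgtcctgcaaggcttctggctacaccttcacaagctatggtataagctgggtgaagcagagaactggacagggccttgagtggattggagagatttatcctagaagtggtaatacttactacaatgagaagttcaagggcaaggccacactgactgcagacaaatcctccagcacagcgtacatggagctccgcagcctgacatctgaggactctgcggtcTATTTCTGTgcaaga
Ighv3-6: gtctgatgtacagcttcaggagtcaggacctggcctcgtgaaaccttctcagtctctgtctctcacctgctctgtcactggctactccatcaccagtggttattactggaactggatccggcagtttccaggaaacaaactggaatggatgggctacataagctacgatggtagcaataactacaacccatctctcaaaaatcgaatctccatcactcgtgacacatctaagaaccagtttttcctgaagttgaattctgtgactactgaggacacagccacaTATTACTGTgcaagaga
They lie on the minus strand of chromosome 12 in GRCm38, at chr12:114788372-114788671, chr12:115920279-115920578 and chr12:114288152-114288451. Ighv1-26 and Ighv1-81 are identical at 84.7% of aligned bases, and Ighv3-6 is identical to them at 56.1 and 54.1%. The mice are BXD2 and the annotation is C57BL/6, so that a name stands for the closest annotated segment. Reads of near-identical segments could be split between names or merged under 1.

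**Figure D2:**
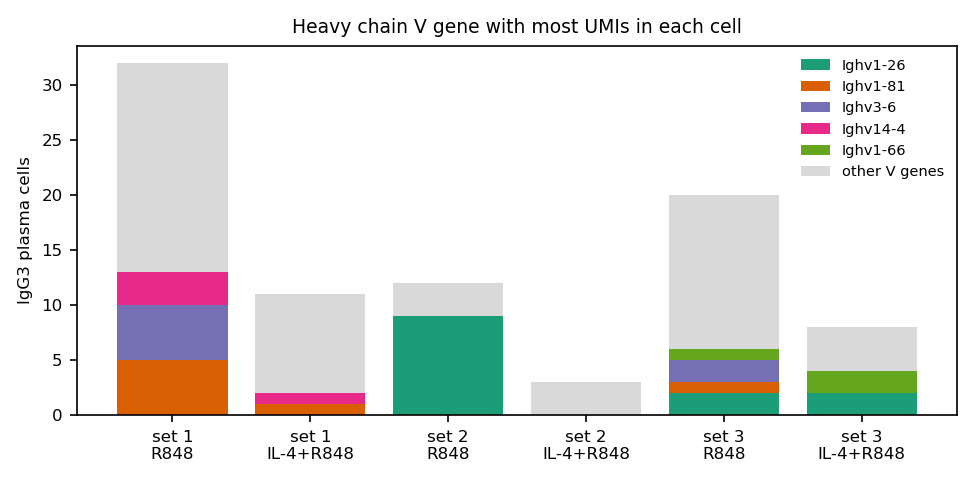
Number of IgG3 plasma cells (y axis) by the heavy chain V gene with most UMIs, for each library set and treatment, with the 5 most used genes in colour and all others in grey. Ighv1-26 fills 9 of 12 cells of set 2 with R848 and none of set 1.

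Pairs of heavy and light chain genes were mostly found once. The 82 cells with both chains held 69 distinct pairs, and 7 pairs that recurred within a set and treatment took in 17 cells. Ighv3-6 with Igkv3-12 occurred in 4 and Ighv1-81 with Igkv4-70 in 3 cells of set 1 with R848. The first of these pairs was also found in 3 of 217 IgM plasma cells of the same set and treatment and in 0 of 120 IgG2b or IgG2c plasma cells. In set 2 with R848, the Ighv1-26 cells had Igkv3-2 in 2 cells and Igkv4-59 above 90% of light V UMIs in 2. In the other 5, Igkv4-59 and Igkv4-70 shared the light chain UMIs almost evenly, at 45.0 to 47.7% for the first and at least 46.3% for the second. Whether these cells carry 2 light chains or 1 that was counted under both names was not tested, and no junction sequence was at hand to tell clones apart. The pair Ighv11-2 with Igkv14-126, a textbook B-1 cell pair, was found in 0 of 82 IgG3, 15 of 690 IgM and 0 of 781 IgG2b or IgG2c plasma cells.

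The next comparison set the IgG3 cells against IgM plasma cells of the same set and treatment. UMIs were summed per isotype, set and treatment. Sums of at least 10 cells entered, which gave 4 pairs (set 1 with both treatments, sets 2 and 3 with R848), and edgeR's quasi-likelihood test with the pair as a block was run over 5593 genes, with Benjamini-Hochberg adjustment. A gene is said to rise or fall where the adjusted p was under 0.05. In all, 93 genes rose (1.66%) and 110 fell (1.97%) in IgG3 cells, 3.63% of those tested. Ighg3 and Ighm, whose difference the rule fixed, are among them, and without the genes of the rule 92 rose and 109 fell. Leaving immunoglobulin genes aside, 92 rose (1.68%) and 75 fell (1.37%) of 5476, 3.05% together. The direction was the same in 4 of 4 pairs for 26.8% of all genes, and the median difference over all genes was -0.03 log2. Fewer cells of a state and less RNA per cell cannot be told apart in such sums. Levels are given in CPM in the order set 1 R848, set 1 IL-4+R848, set 2 R848 and set 3 R848.

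Some genes known from germinal center B cells were higher in the IgG3 cells. Of the 14 genes of that list 7 were abundant enough to be tested, and 5 of these rose and none fell. The median log2 difference was 1.89 over the 7. The filter lets in genes that are high in IgG3 cells alone, so that this count and median are no support by themselves. The whole list without the filter is given below. Mef2b, a transcription factor that drives Bcl6 in germinal center B cells (chr8:70139711-70167488, plus strand), stood at 81.0, 125, 76.2 and 98.6 CPM in IgG3 cells and at 15.8, 35.0, 20.5 and 20.4 CPM in IgM cells. The ranges did not overlap, and the log2 difference was 2.13 ± 0.16 (SE; adjusted p = 0.000601). Nuggc, a nuclear GTPase of germinal center B cells (chr14:65598546-65648531, plus strand), had 30.1, 36.4, 25.4 and 26.9 CPM against 5.7, 6.1, 1.6 and 8.2 CPM, a log2 difference of 2.44 ± 0.38 (adjusted p = 0.0116). Borcs8 overlaps the first part of Mef2b on the same strand, so that reads there could be split between them. The UMIs of Nuggc came from 32 of the 86 IgG3 cells and from 46 of the 699 IgM cells. The call for Nuggc was lost with DESeq2, an alternative test, and in cells with Mki67 and Top2a at 0.

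The death receptor gene Fas had 17.0, 31.2, 25.4 and 11.96 CPM against 3.5 to 11.7 CPM (log2 difference 1.90 ± 0.36, adjusted p = 0.0266). Its call was lost when any 1 of the sets was left out and with DESeq2. Basp1 and Neil1, the other members that rose, are named here after their values were seen. Basp1, a membrane-associated protein gene, had 63.5 to 156 CPM against 29.5 to 32.8 CPM (1.89 ± 0.19, adjusted p = 0.00146). Neil1, a DNA glycosylase of base excision repair, had 56.8 to 102 CPM against 16.7 to 24.7 CPM (1.66 ± 0.22, adjusted p = 0.00482). In IgG2b or IgG2c plasma cells the levels were 47.4 to 56.3 CPM for Mef2b, 21.2 to 22.8 CPM for Nuggc, 16.55 to 22.01 CPM for Fas, 80.5 to 101 CPM for Basp1 and 40.1 to 55.0 CPM for Neil1. Those of Mef2b, Nuggc and Neil1 lay under all 4 IgG3 values, and those of Fas and Basp1 lay among them.

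The defining germinal center genes Bcl6 and Rgs13 were close to 0. Over the 4 IgG3 sums, Bcl6, the master regulator of the germinal center, had 3 UMIs and Rgs13, a regulator of chemokine signalling, had 1 UMI of 1584319. The IgM sums held 23 and 9 UMIs of 9092183. Without a filter on low counts all 14 genes of the list entered, of which 6 were higher and 8 lower in IgG3 cells, with a median of -0.02 beside -0.31 over all genes, and 5 rose.

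Tested genes of the marginal zone list were lower. Of its 14 genes 7 were tested, all 7 were lower with a median of -1.50, and 2 passed. The filter lets in genes that are high in IgM cells alone, so that this count and median are no support by themselves. Cd36, a scavenger receptor gene (chr5:17781690-17888801, minus strand), had 11.3, 10.4, 0 and 0 CPM in IgG3 cells and 67.2, 65.0, 73.5 and 70.6 CPM in IgM cells, a log2 difference of -3.46 ± 0.47 (adjusted p = 0.00568). All 8 Cd36 UMIs of the IgG3 cells lay in set 1, in 5 cells. Ephx1, which encodes a microsomal epoxide hydrolase, had 1 UMI in the 4 IgG3 sums and 113 in the IgM sums. The level in IgM cells was 19.7-fold that in IgG3 cells with a 95% counting interval of 3.46 to 785 (edgeR adjusted p = 0.0473), and its call was lost without any 1 of the sets. Without the filter 13 genes of the list entered, 11 of them lower, and 4 fell, beside a median of -0.31 over all genes. Against IgG2b or IgG2c cells 3 genes of the list were tested, 2 higher and 1 lower in IgG3 cells. Their median was 0.005 and none passed.

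General B cell genes were also lower. Of 16 tested genes of the B cell identity list 15 were lower with a median of -1.25, and 2 fell. The limit of the filter holds for this count and median too. Blk, a Src-family kinase of the B cell receptor pathway, had 9.4, 10.4, 8.5 and 11.96 CPM against 47.3, 35.0, 61.6 and 34.2 CPM (log2 difference -2.11 ± 0.29, adjusted p = 0.00568). Irf8, a transcription factor that opposes the plasma cell program, had 24.5, 62.4, 29.6 and 14.9 CPM against 89.3, 119, 198 and 97.9 CPM (-1.97 ± 0.27, adjusted p = 0.00568). In the IgG3 cells the 1 sum with IL-4+R848 was the highest for Irf8. Ms4a1, which encodes CD20, stood at 90.4, 135, 16.9 and 62.8 CPM in IgG3 cells against a mean of 217 ± 21.7 CPM (SD, n = 4) in IgM cells and missed the threshold (-1.54 ± 0.35, adjusted p = 0.0521). Against IgG2b or IgG2c cells 12 of 15 tested genes of the identity list were lower in IgG3 cells. Their median was -0.15 and none passed.

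**Figure D3:**
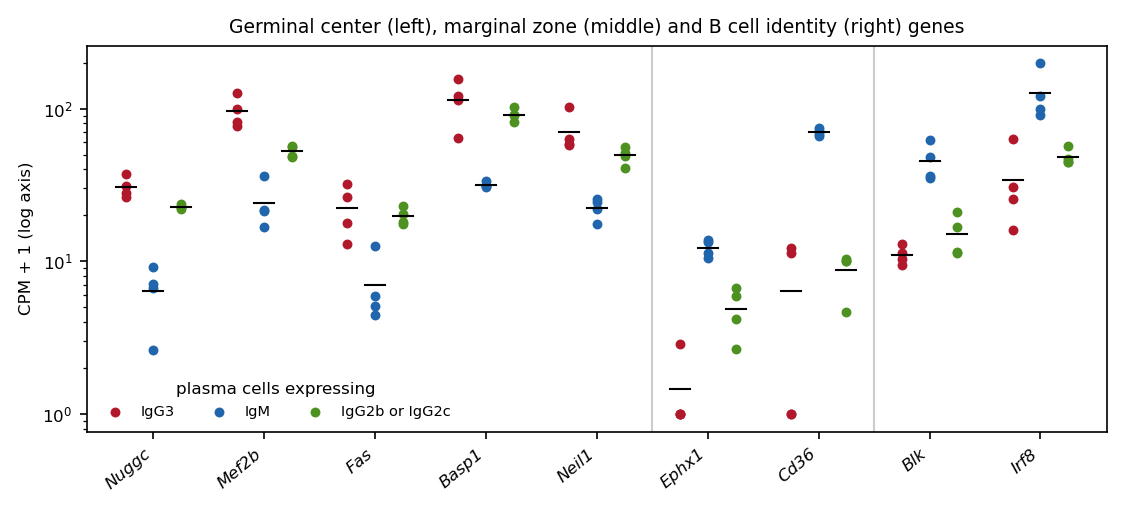
CPM + 1 on a log axis for genes of the germinal center, marginal zone and B cell identity lists, in 4 sums each of IgG3, IgM and IgG2b or IgG2c plasma cells (points) with their mean (line). IgM sums are lower than IgG3 sums for the genes on the left and higher for the others.

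The transcription factors that set plasma cell fate differed little. Of 14 tested, Cited2 alone passed. Cited2, a coactivator of hypoxia and growth pathways, had 381, 416, 432 and 290.0 CPM against 160, 139, 174 and 179 CPM (1.23 ± 0.17, adjusted p = 0.0059). The difference was 0.56 (adjusted p = 0.384) in cells with Mki67 and Top2a at 0, a fit of 4 sums in place of 8. With all 6 pairs it was 0.87 (adjusted p = 0.0766). Xbp1, which drives the secretory program, stood at 2903, 1842, 2427 and 2269 CPM against 1483 to 1858 CPM (0.56 ± 0.33, adjusted p = 0.454). Prdm1, which encodes Blimp-1, stood at 18.8, 67.6, 46.6 and 80.7 CPM against 66.7 to 93.9 CPM (-0.66 ± 0.28, adjusted p = 0.277), and the groups overlapped.

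Secretory genes moved in both directions. In the list of endoplasmic reticulum folding and quality control all 29 genes were tested, 22 were higher and 7 lower, the median was 0.27, and 2 rose and 1 fell. Txndc11, a thioredoxin-domain protein that works with the EDEM family in degradation, had 556, 780.4, 614 and 711 CPM against 349, 316, 279.7 and 346 CPM (1.06 ± 0.20, adjusted p = 0.0281). Sel1l, the adaptor of the Hrd1 ubiquitin ligase in the same degradation pathway, had 143, 182, 88.9 and 215 CPM against 78.9 to 120.4 CPM (0.72 ± 0.14, adjusted p = 0.0298). Txndc5, a protein disulfide isomerase, went the other way, at 985, 744, 589 and 628 CPM against 2625, 2232, 2183 and 2228 CPM (-1.65 ± 0.31, adjusted p = 0.0266). The IgM sums were the highest for it by a wide margin, and IgG2b or IgG2c sums had 704.5 to 1169 CPM. The calls for Txndc11 and Txndc5 were lost without any 1 of the sets, and that for Sel1l without set 1 or set 3.

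Both Txndc genes carry the letters TGACGTGG, known from the unfolded protein response element, in the 250 bases before a RefSeq start. These promoters are shown because the genes share the motif and moved in opposite directions. Searched on both strands, it is present in 0.563% of 32851 RefSeq promoter windows of that length (GRCm38.p6) and in 2 of the 24 folding genes with a window. Each line ends at the base before the start, with the motif in capitals; for Txndc5 the third of its listed starts is shown, since the windows of the others hold no match.
Txndc11: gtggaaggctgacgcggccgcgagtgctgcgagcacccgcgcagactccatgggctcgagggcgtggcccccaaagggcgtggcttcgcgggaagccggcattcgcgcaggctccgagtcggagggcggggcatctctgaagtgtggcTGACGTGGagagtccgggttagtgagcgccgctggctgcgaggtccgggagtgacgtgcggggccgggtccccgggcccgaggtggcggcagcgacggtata
Txndc5: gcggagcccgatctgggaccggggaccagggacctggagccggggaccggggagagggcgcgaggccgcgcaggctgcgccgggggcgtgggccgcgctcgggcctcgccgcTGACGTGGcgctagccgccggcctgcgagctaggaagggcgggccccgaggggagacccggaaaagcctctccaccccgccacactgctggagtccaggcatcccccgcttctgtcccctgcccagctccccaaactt
The windows lie on the minus strand at chr16:11134533-11134782 and chr13:38527915-38528164. A match describes the letters and not a bound site.

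Transport and glycosylation genes showed a similar mixture. Of 29 tested genes of translocation and transport to the Golgi, Lman1 rose and none fell. Lman1, the lectin receptor that carries glycoproteins out of the endoplasmic reticulum, had 539, 661, 639.6 and 622 CPM against 317 to 347 CPM (0.90 ± 0.18, adjusted p = 0.0359), with no overlap, but the call was lost without any 1 set. Of 20 tested glycosylation genes 2 rose and 3 fell. Fut8, which adds the core fucose to the antibody Fc glycan (chr12:77238125-77476338, plus strand), had 281, 364, 241 and 212 CPM against 103, 112, 87.9 and 102 CPM (1.44 ± 0.14, adjusted p = 0.00118). It passed under all 12 alternatives tried.

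The 3 glycosylation genes that fell act in the Golgi. B4galt1, which adds galactose, had 11.3, 26.0, 8.5 and 20.9 CPM against 40.7 to 48.5 CPM (-1.47 ± 0.27, adjusted p = 0.0267). Man2a1, a Golgi mannosidase, had 18.8 to 33.9 CPM against 41.1 to 60.8 CPM (-1.11 ± 0.22, adjusted p = 0.0302). Man1a, another mannosidase, fell by 0.64 and Alg5, a glucosyltransferase of the lipid-linked precursor, rose by 0.59 on the log2 scale (adjusted p = 0.0295 and 0.0402), both named after their values were seen. Outside the list, St3gal6, a sialyltransferase, had 1.9, 15.6, 8.5 and 3.0 CPM against 94.0, 58.3, 62.4 and 65.4 CPM (-3.71 ± 0.43, adjusted p = 0.00258).

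**Figure D4:**
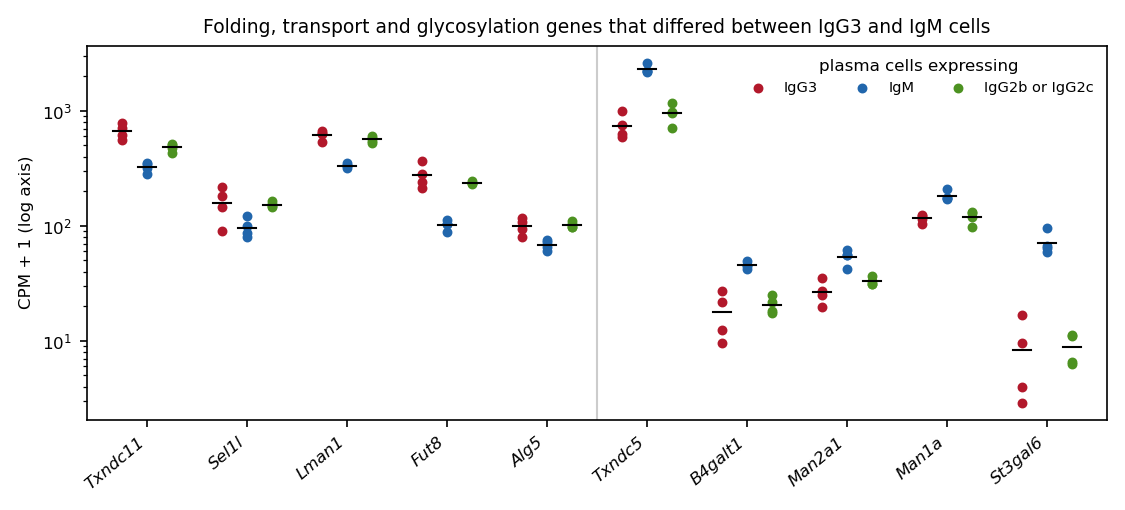
CPM + 1 on a log axis for folding, transport and glycosylation genes, in 4 sums each of IgG3, IgM and IgG2b or IgG2c plasma cells (points) with their mean (line). The 5 genes on the left are higher and the 5 on the right lower in IgG3 than in IgM sums, while IgG2b or IgG2c sums lie near the IgG3 ones.

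Few interferon-responsive genes passed. Of 13 tested type I genes 4 were higher and 9 lower with a median of -0.42, and 1 rose and 1 fell. Of 12 tested genes of the interferon gamma list 11 were higher with a median of 0.29, and 1 rose. Bst2, which encodes the virus-tethering protein tetherin and a surface protein of plasma cells, had 352, 286, 479 and 389 CPM against 127, 173, 135 and 152.5 CPM (1.38 ± 0.19, adjusted p = 0.00568). Ifi27l2a, a small mitochondrial interferon-induced protein, had 132, 125, 191 and 131 CPM against 450.3, 517, 366 and 533 CPM (-1.67 ± 0.21, adjusted p = 0.00385). Igtp, an immunity-related GTPase, had 75.4, 67.6, 72.0 and 95.7 CPM against 21.6 to 27.2 CPM (1.75 ± 0.19, adjusted p = 0.00183). Bst2 and Igtp hold the core of the interferon-stimulated response element (GAAA, any 2 bases, GAAA) in the 250 bases before a RefSeq start. The motif was found on either strand in 2.98% of all windows and in 16 of 31 type I and 9 of 15 interferon gamma list genes with a window. They are shown because both genes rose, with matches in capitals. The 2 matches of Bst2 overlap.
Bst2: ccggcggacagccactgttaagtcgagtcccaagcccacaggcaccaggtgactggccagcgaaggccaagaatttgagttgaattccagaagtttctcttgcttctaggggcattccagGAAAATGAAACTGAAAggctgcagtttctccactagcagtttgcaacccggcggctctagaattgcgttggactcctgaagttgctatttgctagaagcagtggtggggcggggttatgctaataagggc
Igtp: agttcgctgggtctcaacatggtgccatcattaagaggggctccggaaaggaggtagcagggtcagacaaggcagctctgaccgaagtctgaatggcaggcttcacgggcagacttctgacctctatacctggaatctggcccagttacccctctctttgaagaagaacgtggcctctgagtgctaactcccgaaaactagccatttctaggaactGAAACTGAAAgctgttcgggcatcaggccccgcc
The windows are chr8:71537473-71537722 on the minus strand and chr11:58199306-58199555 on the plus strand of GRCm38.p6. Irgm2 overlaps Igtp on the same strand, so that reads could be split between them.

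Of 13 tested genes of the survival list 5 were higher and 8 lower, and 1 rose. Of 19 tested trafficking and adhesion genes 9 were higher and 10 lower, and 1 rose and 1 fell. Cd28, a costimulatory receptor that long-lived plasma cells use for survival, had 43.3, 31.2, 63.5 and 56.8 CPM against 16.9 to 18.3 CPM (1.47 ± 0.23, adjusted p = 0.011). Cxcr3, a chemokine receptor of T-bet-expressing B cells, had 62.2, 41.6, 88.9 and 92.7 CPM against 21.3, 22.2, 39.0 and 37.2 CPM (1.32 ± 0.17, adjusted p = 0.00385). S1pr1, the receptor that guides exit from lymphoid tissue, had 3.8, 5.2, 4.2 and 9.0 CPM against 14.4 to 32.0 CPM (a log2 difference of -1.996 ± 0.44, adjusted p = 0.0479). These genes were named for the same direction in 4 of 4 pairs, so that this agreement is no added support. The call for Cd28 was lost without set 3, and that for S1pr1 without any 1 set. Tnfrsf17, which encodes the APRIL receptor BCMA, stood at 26.4, 5.2, 8.5 and 6.0 CPM against 23.0 to 44.6 CPM and did not pass (adjusted p = 0.0973).

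Remaining lists had few calls. In the stress response list Chac1, a glutathione-degrading enzyme induced by amino acid stress, fell (14.7 ± 10.8 against 53.0 ± 22.7 CPM, SD, n = 4). In the TLR7 and NF-kB list Irak2, a kinase of TLR signalling, fell, with 3 UMIs against 198, a ratio of 11.5 with a 95% counting interval of 3.88 to 56.2. Of 8 tested replication and mitosis genes Mcm6, Cenpa and Hmgb2 fell, for example Hmgb2 at 27.9 ± 5.1 against 65.97 ± 12.5 CPM (log2 difference -1.22). The limit on Mki67 and Top2a bears on this list, and in the sum of 3 cells Hmgb2 stood at 297 CPM. With all 6 pairs the differences were -0.31 for Hmgb2, -0.42 for Cenpa and -1.26 for Mcm6 (adjusted p = 0.785, 0.729 and 0.0616). All 3 calls also ended in cells with Mki67 and Top2a at 0, where 4 sums in place of 8 entered. Odc1, the rate-limiting enzyme of polyamine synthesis, Ndufc2, a subunit of respiratory complex I, and Klf6, an immediate-early transcription factor, rose by 0.89, 0.74 and 0.65 on the log2 scale. No tested gene passed in the lists of B-1 cells (6 tested), class switching (7), IL-4 and STAT6 response (4) and amino acid metabolism (12). The same held for glycolysis (11), MHC class II (10) and cytokines (7). Over all genes 3.63% passed, so that no call among so few genes says little about these lists.

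The genes outside the lists with the largest differences from IgM cells were mostly low in one of the 2 cell types. None of them passed against IgG2b or IgG2c cells, so that they are not shown to be particular to IgG3 cells. UMIs of Tmem176a were found in 43 of 86 IgG3 and 347 of 788 IgG2b or IgG2c cells, those of Kcnn4 in 37 and 403, of Upk3a in 31 and 132, and of Ly6d in 54 and 528. Upk3a, known as a urothelial membrane protein gene, had 30.1, 57.2, 16.9 and 47.8 CPM in IgG3 cells and 0.6 to 2.6 CPM in IgM cells (4.55 ± 0.42, adjusted p = 0.000956). It was found in 31 of 86 IgG3 and 15 of 699 IgM cells. The neighbouring genes Tmem176a and Tmem176b, which encode related membrane proteins and overlap on opposite strands, had means of 117 ± 64.9 against 14.2 ± 2.7 CPM and 115 ± 40.2 against 17.7 ± 6.8 CPM. Kcnn4, a calcium-activated potassium channel, had 74.6 ± 24.5 against 15.6 ± 3.4 CPM. Cox4i2, Tox2 and Lpcat4 rose by 3.24, 3.08 and 2.45 on the log2 scale. Pgam2 rose by 2.51, but its level was 149 CPM in set 1 with R848 and 12.7 to 36.4 CPM elsewhere; 42 of its 102 UMIs in IgG3 cells lay in 1 cell, and the call was lost without set 1 or set 3.

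Among genes that fell, Ly6d, a surface protein of early and naive B cells, had 211, 260.1, 161 and 293 CPM against 1672, 1476, 1804 and 1563 CPM (-2.82 ± 0.32, adjusted p = 0.00226). Tmed6, a cargo receptor family member, had 77.3 ± 53.2 against 743 ± 216 CPM. Selenop, a selenium carrier, had 7.7 ± 5.2 against 61.2 ± 9.2 CPM, Lgals9, a galectin, had 8.2 ± 5.6 against 63.5 ± 6.4 CPM, and Atp1b1, a sodium pump subunit, had 7.1 ± 8.7 against 48.8 ± 10.2 CPM. Myof had 1 UMI against 216, a ratio of 37.6 with a counting interval of 6.68 to 1493, and E330020D12Rik had 2 against 323 (28.1, interval 7.73 to 233). The 49 named genes that passed kept their sign under each of the 12 alternatives in which they were tested. Apart from Basp1, Neil1, Alg5 and Man1a, they were named for the same direction in every pair, so that a kept sign adds little. Of them, 12 passed under every one: Irf8, Fut8, Mef2b, Basp1, Ifi27l2a, Bst2, Upk3a, Tmem176a, Tmem176b, St3gal6, Tmed6 and Selenop. Without set 1, 2 or 3, the call was lost for 15, 18 or 19 of the 49. The stricter hashtag rule lost 27 of 47 calls, Mki67 and Top2a at 0 lost 31 of 42, DESeq2 lost 10 of 49 and all 6 pairs lost 8 of 43. The hashtag rule left 6 sums and Mki67 and Top2a at 0 left 4, in place of 8, so that fewer sums bear on these losses. Cited2, Blk, Cxcr3 and Igtp were lost under the stricter hashtag rule and with Mki67 and Top2a at 0, and kept without any 1 set. Beside those said above, Alg5, Man1a, Man2a1 and Klf6 were lost without any 1 set, Cenpa and Odc1 without set 1 or 2, Hmgb2 without set 1, B4galt1, Irak2, Mcm6, Ndufc2 and Lpcat4 without set 2 or 3, Atp1b1 without set 2 and Chac1 without set 3.

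Set against IgG2b and IgG2c plasma cells in the same way, IgG3 cells had few calls, and all but 1 were immunoglobulin genes. Of 5900 genes tested over the same 4 pairs, 1 rose (0.0169%) and 34 fell (0.576%), 0.593% in all. Ighg3, Ighg2b and Ighg2c are 3 of these, and the rule that chose the cells fixed their direction. Without the genes of the rule none of 5891 rose and 32 fell (0.543%), of which 31 were V genes such as Ighv1-15 at 0.47 against 6154 CPM. The 4 IgG3 sums held 75 cells, and each was set against 114 to 343 IgG2b or IgG2c cells.

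Scimp was the 1 other gene to fall of 5770 (0.0173%). Scimp, an adaptor that links MHC class II and TLR signals to kinases (chr11:70790932-70812586, minus strand), had 18.8, 15.6, 12.7 and 17.9 CPM in IgG3 cells and 46.1, 48.3, 48.0 and 49.7 CPM in IgG2b or IgG2c cells. The log2 difference was -1.51 ± 0.21 (adjusted p = 0.0244). The groups did not overlap, but in the IL-4+R848 sums left out for their few cells Scimp stood at 44.0 and 25.6 CPM in IgG3 and at 23.0 and 34.1 CPM in IgG2b or IgG2c cells of sets 2 and 3. IgM cells stood at 9.6 to 19.3 CPM. The adjusted p was 0.202, 0.0626 and 0.126 without sets 1, 2 and 3, and 0.0854 when immunoglobulin genes were left out of the fit. At an unadjusted p under 0.05 edgeR had 304 genes, and DESeq2 called 75, of which 63 were immunoglobulin genes. For genes that differed from IgM cells, the log2 difference from IgG2b or IgG2c cells was 0.84 ± 0.16 for Mef2b (adjusted p = 0.137), 0.41 ± 0.22 for Nuggc, 0.18 ± 0.16 for Fut8 and -0.38 ± 0.27 for Txndc5, and none of these passed. Nor did any other gene named against IgM cells pass here, so that none is shown to be particular to IgG3 cells. UMIs of Cxcr3 were found in 41 of 86 IgG3, 404 of 788 IgG2b or IgG2c and 135 of 699 IgM cells. For Cd28 these were 28, 227 and 104 cells, for Igtp 30, 313 and 152, and for Bst2 85, 766 and 526. The comparisons with IgM and with IgG2b or IgG2c cells share the IgG3 sums.

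The effect of IL-4 on gene expression within IgG3 cells could not be tested as planned, because the sums with IL-4+R848 held 11, 3 and 8 cells and 1 reached 10. With the minimum lowered to 3 cells after these numbers were seen, edgeR tested 1591 genes. None rose and 3 fell (0.189%), all light chain V genes: Igkv1-110, Igkv4-59 and Igkv3-2. Igkv1-110 had 20488, 47850 and 16863 CPM with R848 and 36.4, 11.0 and 6.4 CPM with IL-4+R848. These calls rest on few cells. Igkv1-110 was the leading light chain gene of 1 cell in each R848 set, of 32, 12 and 20, and these cells held 99.8 to 99.97% of its UMIs. Igkv4-59 led in 2, 3 and 1 cells and Igkv3-2 in 1, 2 and 1 cells, and none of the 3 genes led in any of the 22 IL-4+R848 cells. DESeq2 called 7 genes, 108 genes had an unadjusted p under 0.05 in edgeR, and the groups did not overlap for 248 genes (15.6%). With the set as a block 6 genes were called, 5 of them light chain V genes, and the sixth was Vpreb3, a partner of immunoglobulin light chains in B cells.

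Vpreb3 had 92.3, 8.5 and 23.9 CPM with R848 and 328, 33.0 and 179 CPM with IL-4+R848. It was higher with IL-4+R848 in 3 of 3 sets although the groups overlapped, by 2.22 ± 0.32 on the log2 scale with the block (adjusted p = 0.0155) and by 2.11 ± 0.71 without it (adjusted p = 0.608). Of the B cell identity list, 9 of 9 tested genes were higher with IL-4+R848 and none passed, with a median of 0.99 beside 0.01 over all genes. Irf8 stood at 24.5, 29.6 and 14.9 CPM with R848 and 62.4, 88.1 and 51.2 CPM with IL-4+R848 (1.59 ± 0.38, adjusted p = 0.487). H2-DMb2, a peptide-loading factor of MHC class II, stood at 37.7, 12.7 and 44.8 CPM against 93.6, 143 and 76.7 CPM (1.65 ± 0.41, adjusted p = 0.487). Neither gene had overlapping groups, but neither passed. Of 8 tested MHC class II and costimulation genes 7 were higher with a median of 0.53, and without set 1 this was 5 of 8 with a median of 0.12. Whether the IL-4 effect differed between IgG3 and IgM plasma cells was tested over 5648 genes, and 1 passed (0.0177%), again Igkv1-110.

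The antibody tags measured proteins on the same cells. A tag is given as its percent of all surface tag UMIs in a sum. CD138, the syndecan-1 protein that marks plasma cells, took 65.3, 39.6, 72.0 and 66.6% on IgG3 cells in the 4 pairs and 38.0, 33.5, 30.1 and 38.9% on IgM cells. It was higher in 4 of 4 pairs, at 60.9 ± 14.5% against 35.1 ± 4.06% (SD). A share depends on the other tags, and in UMIs per cell CD138 was higher in 3 of 4 pairs, at 400, 278, 430.5 and 394 against 284, 319, 188 and 200 (exact permutation p = 0.25). Surface IgM took 1.34 ± 0.777% against 10.6 ± 1.23% and CD21, the complement receptor high on marginal zone B cells, 4.92 ± 1.55% against 18.04 ± 4.83%, both lower in 4 of 4. The rule set Ighm low in IgG3 and high in IgM cells, so that the direction for surface IgM follows from the choice of cells. CD93 and CD27 were lower in 4 of 4 as well, and IgM, CD21, CD93 and CD27 were so in UMIs per cell too. IgD was lower in 4 of 4 pairs as a share and in 3 of 4 in UMIs per cell. For each of these shares the two-sided exact sign-flip permutation p was 0.125, the smallest that 4 pairs allow, and 0.25 after adjustment over 12 tags.

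With all 6 pairs, an alternative added after the cell numbers were seen, CD21, IgM and CD93 were lower in 6 of 6 (exact permutation test at the smallest p that 6 pairs allow, adjusted p = 0.125). For IgM the direction again follows from the choice of cells. Against IgG2b or IgG2c cells no tag was higher or lower in 4 of 4 pairs. CD138 there was 57.2 ± 1.05% and CD21 5.62 ± 2.66%. Sdc1, the gene for CD138, stood at 152 ± 35.4 CPM in IgG3 and 107 ± 12.8 CPM in IgM cells (adjusted p = 0.0534).

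With IL-4+R848 the CD138 share on IgG3 cells was lower. It was 65.3, 72.0 and 66.6% with R848 and 39.6, 28.2 and 47.3% with IL-4+R848 in sets 1 to 3, with no overlap between the groups (68.0 ± 3.54% against 38.4 ± 9.60%, SD, n = 3). The exact permutation p was 0.1, the smallest that 3 against 3 allows, and 0.48 after adjustment over 12 tags. The values with IL-4+R848 rest on 22 cells: without the cell with most CD138 UMIs in each sum they were 32.9, 45.1 and 54.6%, against 63.6, 66.3 and 61.6% with R848. On IgG2b or IgG2c cells CD138 was 56.3, 58.6 and 57.4% with R848 and 56.5, 59.2 and 38.9% with IL-4+R848. On IgM cells it was 38.0, 30.1 and 38.9% with R848 and 33.5, 29.8 and 32.6% with IL-4+R848. This was lower in each set, though in UMIs per cell it was higher in sets 1 and 2. Outside the plasma cell gate it was 2.35, 2.45 and 2.41% against 1.10, 0.864 and 0.858%. Whether the change differed between isotypes was not tested. The share depends on other tags, and on IgG3 cells the CD23 and IgD shares were higher with IL-4+R848 in 2 of 3 sets. In UMIs per cell, CD138 on IgG3 cells was 400, 430.5 and 394 with R848 and 278, 256 and 281 with IL-4+R848. These values were lower with IL-4+R848 in 3 of 3 sets (exact permutation p = 0.1, adjusted 0.3) and rest on the same 22 cells. CD273, the PD-1 ligand PD-L2, was higher in 3 of 3 sets at 0.500 ± 0.0841% against 0.249 ± 0.156% (exact permutation p = 0.1, adjusted 0.48). GL7, a glycan epitope of germinal center and activated B cells, took 15.4% in set 1 with IL-4+R848 and 0.878 to 2.96% in the other sums. The median cell of that sum had 8 GL7 UMIs and the highest 406 of 1189.

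**Figure D5:**
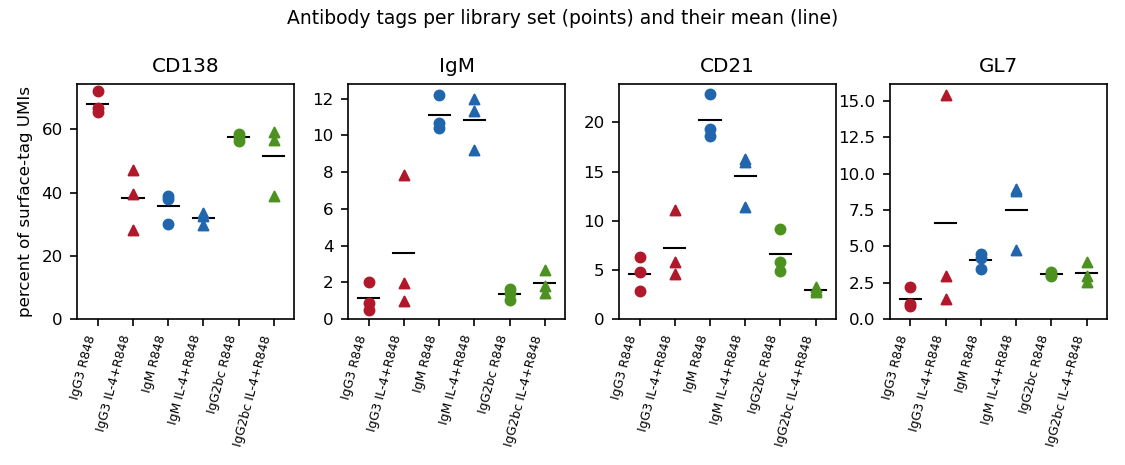
Percent of surface tag UMIs (y axes from 0) for 4 antibodies in IgG3, IgM and IgG2b or IgG2c plasma cells, with 3 library sets per treatment (circles R848, triangles IL-4+R848) and their mean (line). CD138 on IgG3 cells falls from a mean of 68.0% to 38.4% between treatments, and surface IgM and CD21 are lower on IgG3 and IgG2b or IgG2c than on IgM cells.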

How the data were processed

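Per the labels' protocols, spleen B cells of R848 and IL-4+R848 mice were pooled in 3 single-cell 5' libraries. The authors deposited raw UMI counts per gene, antibody tag and barcode, and the file headers give Cell Ranger 6.0.1 as the counting software. The submitters' processing notes give the mm10 build and name Seurat 4.1.3 without its role. Treatment was read from the hashtag names, with at least 64 UMIs and 4-fold the other tag plus 1. Doublets of 2 cells with the same hashtag remain. The sets held 14519, 11389 and 14222 barcodes, and the 6 groups of kept cells had median depths of 4445.5 to 6995 UMIs, which leaves counts of low genes coarse.

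Counts were summed per isotype, set and treatment and tested by the quasi-likelihood method of edgeR 4.0.16 after TMM scaling and its default low-count filter, with DESeq2 1.42.0 as an alternative, in R 4.3.3; CPM were computed from the same sums. Set and treatment together, the pair, were used as the block between isotypes, since both isotypes come from the same library. In the treatment comparison same-set deviations correlated at 0.279, 0.172 and 0.0908 over 1434 genes; a shared library pairs the samples, so the block is given beside the result. The planned minimum of 10 cells left the treatment comparison untestable, and 3 cells were used instead. Genes named are up to 3 per list with the largest change in the same direction in every pair, and 8 up and 8 down outside the lists with a mean of at least 20 CPM. Basp1, Neil1, Alg5 and Man1a were added to complete their lists. Whether the counting used strand is not given in the sources used here. The members and lists were chosen with earlier results of these data known. The tests were also tried on simulated counts with dispersions estimated from these data. Of 2-fold changes, 42.7% were recovered against IgM cells and 49.5% against IgG2b or IgG2c cells. For IL-4 in IgG3 cells 55.8% were recovered, but over 1578 more abundant genes, against 5467 and 5798 genes in those 2 comparisons. The rates are therefore not comparable between tests. For the difference of IL-4 effects 4.26% were recovered, a test that would thus miss most 2-fold differences. The simulated counts held no differences between sets. Exact intervals are at 95% and cover counting error only. Alternatives changed the normalization, tool, filter, isotype, hashtag and cell limits and left out each set.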

Additional observations from a re-analysis of the deposited data

Results flagged for a closer look

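The light chain gene Igkv1-110 was the gene for which the IL-4 effect differed between IgG3 and IgM plasma cells by the test of that difference. The log2 difference of the effects was -11.77 ± 0.97 (SE; edgeR's quasi-likelihood test, Benjamini-Hochberg adjusted p = 0.004). In IgG3 cells of sets 1 to 3 the level was 20488, 47850 and 16863 CPM with R848 and 36.4, 11.0 and 6.4 CPM with IL-4+R848. In IgM cells it was 10259, 19839 and 6065 CPM with R848 and 20210, 21669 and 26003 CPM with IL-4+R848. It was lower with IL-4+R848 in 3 of 3 sets of IgG3 cells and higher in 3 of 3 sets of IgM cells. The IgG3 sums with IL-4+R848 hold 11, 3 and 8 cells. In each R848 set 1 IgG3 cell, of 32, 12 and 20, had Igkv1-110 as its leading light chain gene and held 99.8 to 99.97% of its UMIs, so that the value rests on 3 cells and their presence or absence. The minimum of 3 cells per sum was set after the cell numbers were seen, and no gene passed without set 2 or set 3.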

How the results depend on the processing

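Depth limits these results through cell number, 86 in all and 22 with IL-4+R848. The lower IgG3 share with IL-4+R848 kept its direction in every alternative tried, from -0.0565 to -0.190 percentage points. Without set 1 the difference turned to 0.401 for the share among plasma cells and to -1.54 for the dividing share; over the 3 omissions these ran from -2.23 to 0.401 and from -1.54 to 7.54. Against IgM cells, where 203 genes were called, DESeq2 called 358, no filter 583, the fit without immunoglobulin genes 454, the stricter hashtag rule 92 (6 sums), Mki67 and Top2a at 0 gave 72 (4 sums), and leaving out a set 118 to 304. DESeq2 shared 185 and the hashtag rule 72 of the 203 genes. Against IgG2b or IgG2c cells, where 35 were called, DESeq2 gave 75, no filter 131, no immunoglobulin genes 0 (291 at an unadjusted p under 0.05), all 6 pairs 17, and omitted sets 36 to 69. With no replicate block the counts were 291 and 25. For IL-4 in IgG3 cells, where 3 were called, DESeq2 gave 7, no filter 130, the replicate block 6, and no immunoglobulin genes, the hashtag rule and Mki67 and Top2a at 0 gave 0 each (103, 87 and 85 unadjusted); omitted sets gave 0 to 5. For the difference of IL-4 effects, where 1 was called, DESeq2 gave 15, no filter 81, those same 3 alternatives 0 each (293, 213 and 200 unadjusted), and omitted sets 0 to 7. All 6 pairs against IgM cells gave 269. No tag passed in any alternative. Without the block Sel1l, Chac1 and Klf6 no longer passed, and the block added Vpreb3, Igkv4-71 and Igkv5-39 to the IL-4 result. The causes of these shifts were not tested.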
